A study of Mus musculus with 8 samples.

Results

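The metabolic nuclear receptors and the aryl hydrocarbon receptor AhR are the ligand-activated transcription factors through which liver cells sense bile acids, oxysterols, fatty acids, drugs and environmental chemicals. The 9 genes described here were picked by symbol from a table of 24421, and all 9 were found: Nr1i2 (PXR), Nr1i3 (CAR), Nr1h4 (FXR), Nr1h3 (LXR alpha), Nr0b2 (SHP), Ppara (PPAR alpha), Rxra (RXR alpha), Esr1 (estrogen receptor alpha) and Ahr. Liver RNA of C57BL/6N mice aged 8 to 10 weeks was sequenced as stranded poly(A) libraries, 4 labelled CAPZ_KO and 4 labelled WT. The CAPZ_KO animals were Albumin-CreERT2;Capzb-fl/fl and received tamoxifen on 5 days in a row from an age of 4 to 6 weeks, so that Cre, driven by the hepatocyte promoter of albumin, removes part of floxed Capzb, the beta subunit gene of the actin capping protein. The WT animals also carried Capzb-fl/fl, either with tamoxifen and without Cre or with Albumin-CreERT2 and without tamoxifen. Which WT library is of which kind is not in the labels, and exposure to tamoxifen, itself a ligand of the estrogen receptor, cannot be told apart from the deletion in any comparison below. Separate samples are numbered in the labels, but separate animals are not stated, and the tests rest on the spread between samples only.

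Most of these receptors bind DNA as heterodimers with RXR alpha, whereas estrogen receptor alpha pairs with itself, and a bound ligand swaps corepressors for coactivators. PXR and CAR switch on drug metabolism, FXR responds to bile acids and induces SHP, which lacks a DNA-binding domain and represses bile acid synthesis, LXR alpha responds to oxysterols, and PPAR alpha drives fatty acid oxidation in fasting. AhR is no nuclear receptor: it waits in the cytosol with chaperones and pairs with Arnt to induce Cyp1 genes.

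In CAPZ_KO livers the receptors did not move as a block. Ppara fell to 24.3% of its WT level, Nr1i3, Nr1h4 and Rxra fell less, and Esr1 rose 3.31-fold. Nr1i2, Nr1h3, Nr0b2 and Ahr did not pass the test. Of the 9 genes, 1 was higher and 4 were lower at an adjusted p under 0.05 (edgeR quasi-likelihood test, adjusted over 12985 tested genes), where 22.4% of all tested genes were called higher and 19% lower. The median log2 fold change was −0.35 over the 9 receptors and −0.003 over all tested genes. In 5 of the 9 every library of 1 group lay above every library of the other, as in 40.3% of all tested genes.

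Total counts per library were 13122355 to 16984971 in CAPZ_KO and 12060350 to 18916315 in WT, and no receptor had fewer than 67 reads in any library. Capzb, the check of the labels, was at 64.5 to 79.6 CPM (a gene's reads scaled to the library size, corrected for composition by TMM) in CAPZ_KO and 109 to 139.6 CPM in WT. The replicate-4 library of each group held Xist RNA (208 CPM in CAPZ_KO 4, 351 CPM in WT 4) and no reads of the Y-linked Ddx3y, while the other 6 had Ddx3y and at most 0.426 CPM of Xist, so that both groups hold 1 library with a female and 3 with a male pattern. Cell type markers differed too: 9 of 10 hepatocyte markers were lower (median log2 fold change −1.96, summed level 42916 to 63006 CPM in CAPZ_KO and 178500 to 222680 CPM in WT). Alb made up most of these hepatocyte sums, at a mean of 34699 CPM in CAPZ_KO and 146748 CPM in WT. Apoa1 was not called, with a log2 fold change of −0.46 (edgeR adjusted p = 0.215). Higher were 4 of 7 tested cholangiocyte markers, Krt7 and Krt19 not among them (sums of 369 to 1088 CPM in CAPZ_KO and 42.9 to 79.6 CPM in WT). Spp1 made up most of that sum in CAPZ_KO, at a mean of 604 CPM against 30.2 CPM in WT. Also higher were 6 of 8 markers of monocyte-derived macrophages (587 to 854 CPM in CAPZ_KO and 316 to 503 CPM in WT) and 6 of 7 of stellate cells (402 to 939 CPM in CAPZ_KO and 107 to 171 CPM in WT). Only 2 of 6 were higher for Kupffer cells (987 to 3337 CPM in CAPZ_KO and 469 to 1334 CPM in WT) and 2 of 6 for endothelial cells (301 to 471 CPM in CAPZ_KO and 233 to 386 CPM in WT), with overlapping sums. The share called was 90% for hepatocyte, 85.7% for stellate, 75% for monocyte-derived macrophage and 57.1% for cholangiocyte markers. It was 33.3% for Kupffer and for endothelial cells, below the 41.4% of all tested genes. Of 7 T and B cell markers, 0 were called by edgeR, by DESeq2 or by limma-voom, and 0 had an unadjusted p under 0.05 (sums of 6.83 to 15.2 CPM in CAPZ_KO and 4.40 to 19.4 CPM in WT). No marker was at 0 in all 8 libraries. The part of these shifts in the results below was not tested, and in whole tissue fewer cells of a type cannot be told apart from less RNA per cell.

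For the 5 receptor genes that changed, promoter windows are printed here because the RNA of these genes moved. Each is the 250 bases before the first listed RefSeq start (GRCm38.p6, the assembly that mm10 names), 5′ to 3′ on the gene's strand. Capitals mark the receptor half-site AGGTCA, the xenobiotic response core GCGTG that AhR and Arnt bind, and the TATA box core TATAAA, each searched on both strands.
Ppara (chr15:85735526-85735775, plus strand): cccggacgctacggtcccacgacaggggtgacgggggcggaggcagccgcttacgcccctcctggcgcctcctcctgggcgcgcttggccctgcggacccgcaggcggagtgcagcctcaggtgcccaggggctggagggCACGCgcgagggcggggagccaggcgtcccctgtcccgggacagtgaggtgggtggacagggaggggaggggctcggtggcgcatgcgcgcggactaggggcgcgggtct
Nr1i3 (chr1:171213720-171213969, plus strand): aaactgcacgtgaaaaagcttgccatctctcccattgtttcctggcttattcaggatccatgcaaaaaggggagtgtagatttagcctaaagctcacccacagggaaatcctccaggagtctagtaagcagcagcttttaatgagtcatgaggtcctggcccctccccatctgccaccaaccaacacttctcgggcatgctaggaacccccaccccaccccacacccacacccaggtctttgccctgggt
Nr1h4 (chr10:89506659-89506908, minus strand): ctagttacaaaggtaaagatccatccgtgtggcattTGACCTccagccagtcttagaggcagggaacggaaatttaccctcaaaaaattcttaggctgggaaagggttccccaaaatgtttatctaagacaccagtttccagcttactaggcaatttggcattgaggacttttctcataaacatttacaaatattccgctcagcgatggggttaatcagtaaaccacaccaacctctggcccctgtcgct
Rxra (chr2:27676951-27677200, plus strand): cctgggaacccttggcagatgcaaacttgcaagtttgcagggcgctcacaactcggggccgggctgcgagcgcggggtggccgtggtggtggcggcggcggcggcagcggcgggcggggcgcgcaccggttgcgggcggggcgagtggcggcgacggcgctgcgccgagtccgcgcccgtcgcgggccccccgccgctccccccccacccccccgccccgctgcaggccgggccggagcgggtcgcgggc
Esr1 (chr10:4611739-4611988, plus strand): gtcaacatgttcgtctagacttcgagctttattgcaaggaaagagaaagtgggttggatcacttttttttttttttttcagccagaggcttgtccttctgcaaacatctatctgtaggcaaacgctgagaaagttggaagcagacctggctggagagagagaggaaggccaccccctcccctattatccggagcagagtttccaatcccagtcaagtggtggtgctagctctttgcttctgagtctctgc
The Rxra and Ppara windows were rich in CpG, with 40 and 27 CpG dinucleotides and 81.2% and 76.4% G and C. Those of Nr1i3, Nr1h4 and Esr1 held 2, 5 and 4 CpG dinucleotides. The Nr1h4 window held 1 half-site, 214 bases before the start on the opposite strand, and the Ppara window 1 xenobiotic core, 110 bases before the start on the opposite strand. Among all 32851 RefSeq windows of that length, 14% held AGGTCA, 28.2% GCGTG and 12.4% TATAAA. RefSeq promoters were found for 8 of the 9 genes, and Rxra, Esr1 and Nr1h3 had more than 1 start. The window of Rxra start 2, not printed, held half-sites 87 bases (opposite strand) and 48 bases (same strand) before that start. Which start is used in these livers was not measured. All printed windows but that of Nr1i3 lie inside the annotated span of their gene. These letters are a description of the sequence and carry no measurement of binding.

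Esr1, the receptor that mediates estrogen responses in hepatocytes and other liver cells, was the one receptor that rose. Its level was 109, 188, 198 and 166 CPM in CAPZ_KO libraries 1 to 4, against 37.2, 29.9, 37.2 and 95.4 CPM in WT libraries 1 to 4. The groups did not overlap, and the WT library with Xist RNA stood well above the other 3 WT libraries. The log2 fold change was 1.73 ± 0.369 (SE; adjusted p = 0.00498 by edgeR), higher in 4 of 4 CAPZ_KO libraries than in any WT library. Among the 6 libraries without Xist RNA it was 2.24 ± 0.240 (SE; adjusted p = 0.000207 by edgeR), and with sex as a term over all 8 it was 1.89. In a fit chosen after the data were seen, the edgeR log2 estimate of how far the change in Xist-expressing libraries differs from that in the others was −1.45, with an unadjusted p of 0.0119, an adjusted p of 0.9999 and 1 Xist-expressing library a group. Esr1 spans 4611593 to 5005614 of chromosome 10 (plus strand, GRCm38), and none of its exons overlaps that of another annotated gene.

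**Figure D1:**
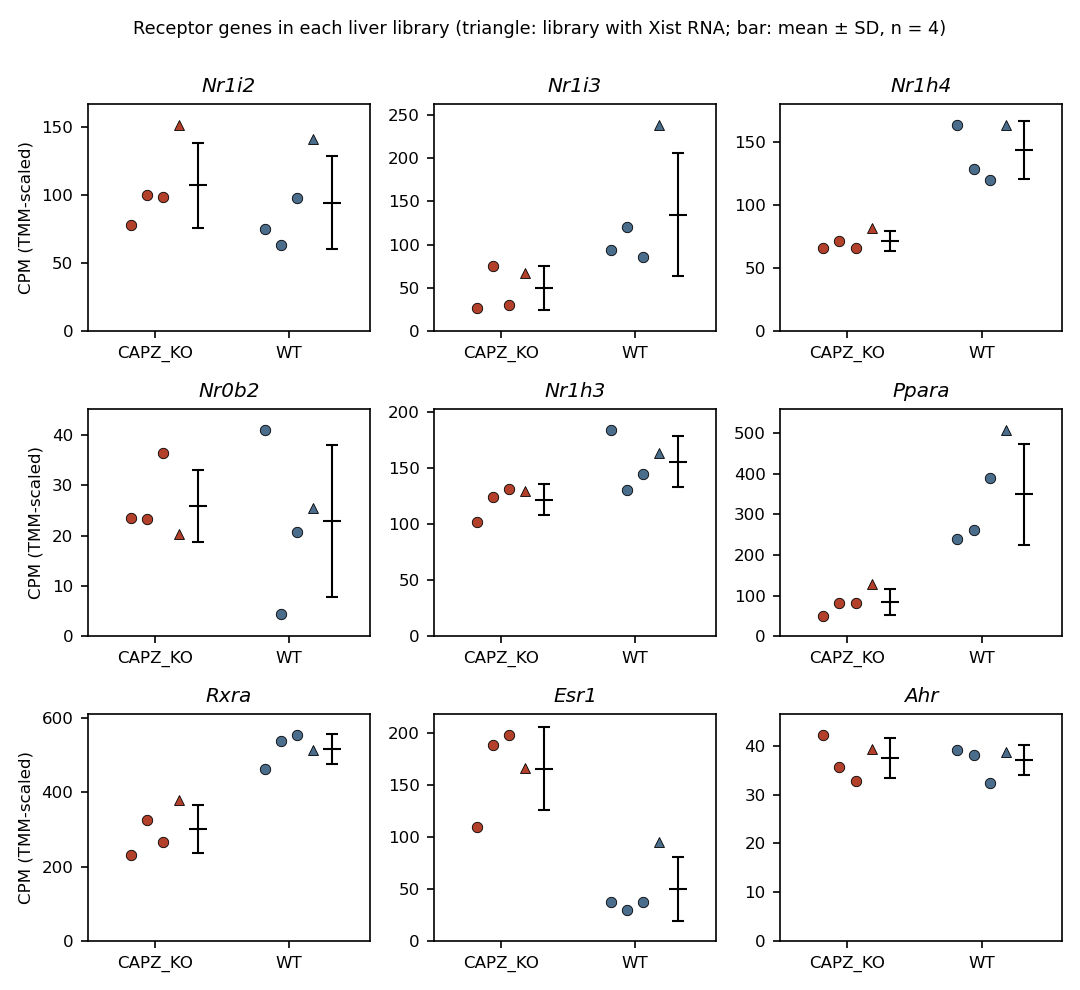
Level of each receptor gene in each library, in CPM after TMM scaling on axes that start at 0, with CAPZ_KO left of WT, a triangle for the library with Xist RNA, and the mean ± SD of 4 libraries beside the points. Ppara, Nr1h4, Rxra and Nr1i3 lie lower in all 4 CAPZ_KO libraries, Esr1 lies higher in all 4, and the groups overlap for the other 4 genes.

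Ppara, the receptor that turns on fatty acid oxidation and ketogenesis, had the lowest log2 fold change of the 9. It was at 48.8, 81.5, 81.0 and 127.6 CPM in CAPZ_KO libraries 1 to 4, against 238, 260.5, 388 and 507.5 CPM in WT libraries 1 to 4. All CAPZ_KO libraries lay far below the lowest WT library, and in each group the library with Xist RNA was the highest. The log2 fold change was −2.04 ± 0.325 (SE; adjusted p = 0.000919 by edgeR), or 24.3% of the WT level. Ppara lies on chromosome 15 from 85734983 to 85802819 (plus strand).

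Rxra, the shared heterodimer partner, was lower in CAPZ_KO. Rxra lies on chromosome 2 from 27676440 to 27762957 (plus strand). It stood at 232, 327, 268 and 379.5 CPM in CAPZ_KO libraries 1 to 4, against 462, 538, 555 and 513 CPM in WT libraries 1 to 4, again without overlap. Its log2 fold change was −0.78 ± 0.172 (SE; adjusted p = 0.00508 by edgeR), or 58.3% of the WT level. Of the other RXR genes, Rxrg had a log2 fold change of −1.06 ± 0.248 (SE; adjusted p = 0.00698 by edgeR) at 3.63 ± 0.792 CPM in CAPZ_KO and 7.54 ± 1.94 CPM in WT (SD, n = 4 each). Rxrb, named after its values were seen, had −0.19 ± 0.115 (SE; adjusted p = 0.205 by edgeR).

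Nr1h4, the bile acid receptor FXR (chromosome 10, 89454234 to 89533585, minus strand), fell to 49.7% with a small spread in both groups. It was at 66.1, 72.0, 65.9 and 82.2 CPM in CAPZ_KO libraries 1 to 4, against 164, 128, 119.9 and 163.5 CPM in WT libraries 1 to 4. The ranges stood apart in every pair of libraries. The log2 fold change of −1.01 ± 0.145 (SE; adjusted p = 0.00048 by edgeR) was as large in the libraries without Xist RNA (−1.02). Nr0b2, the SHP gene that FXR induces (chromosome 4, 133553376 to 133556536, plus strand), was at 23.6, 23.4, 36.4 and 20.3 CPM in CAPZ_KO libraries 1 to 4, against 41.1, 4.41, 20.7 and 25.5 CPM in WT libraries 1 to 4. The WT range enclosed the whole CAPZ_KO range. Its log2 fold change was 0.19 ± 0.523 (SE; adjusted p = 0.798 by edgeR), with a 95% interval from 0.499-fold to 2.59-fold. Without WT 2 the estimate was −0.17 and without CAPZ_KO 3 it was −0.062.

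Of the drug sensors CAR and PXR, Nr1i3 (CAR) passed the test and Nr1i2 (PXR) did not, and the difference between their changes was not tested. Nr1i3 was at 26.5, 75.5, 29.9 and 67.1 CPM in CAPZ_KO libraries 1 to 4, against 94.0, 121, 86.0 and 238 CPM in WT libraries 1 to 4. All CAPZ_KO libraries lay below all WT libraries, with a wide spread inside both groups. The log2 fold change was −1.44 ± 0.437 (SE; adjusted p = 0.0268 by edgeR), or 36.9% of the WT level. That call was lost without WT 4 (−1.02, adjusted p = 0.0566), without CAPZ_KO 1 (−1.25, adjusted p = 0.0515), without CAPZ_KO 3 (−1.28, adjusted p = 0.0586) and without both Xist-expressing libraries (−1.19, adjusted p = 0.0502). Nr1i3 lies on chromosome 1 from 171213970 to 171220701 (plus strand). Its exons overlap those of Tomm40l on the opposite strand, and the strand setting of the counting is not given in the sources used here.

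Nr1i2, on chromosome 16 from 38248323 to 38294824 (minus strand), was at 78.5, 100.2, 98.7 and 152 CPM in CAPZ_KO libraries 1 to 4, against 75.3, 63.5, 98.2 and 141 CPM in WT libraries 1 to 4. The groups overlapped, and the library with Xist RNA was the highest of each. Its log2 fold change was 0.18 ± 0.269 (SE; adjusted p = 0.617 by edgeR), with a 95% interval from 0.748-fold to 1.72-fold, and without CAPZ_KO 4 the estimate was −0.038. In a fit with both group and sex, the Xist-expressing libraries had 0.78 more Nr1i2 on the log2 scale (unadjusted p = 0.00122, edgeR adjusted p = 0.238).

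Nr1h3, the oxysterol receptor of hepatocytes and macrophages, was at 102, 124, 131 and 129.9 CPM in CAPZ_KO libraries 1 to 4, against 184, 131, 145 and 163 CPM in WT libraries 1 to 4. Only the lowest WT library reached into the CAPZ_KO range. The log2 fold change was −0.35 ± 0.144 (SE; adjusted p = 0.0726 by edgeR), with a 95% interval from 0.626-fold to 0.977-fold before adjustment. It passed without WT 2 (adjusted p = 0.0458) and by DESeq2 (adjusted p = 0.0433), and it was 0.27 with library sizes alone. Nr1h3 lies on chromosome 2 from 91184061 to 91202834 (minus strand), and an exon overlaps the gene model Gm13783 on the same strand.

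Ahr, the sensor of dioxins and plant-derived ligands (chromosome 12, 35497974 to 35535038, minus strand), did not pass the test. It was at 42.3, 35.6, 32.8 and 39.3 CPM in CAPZ_KO libraries 1 to 4, against 39.1, 38.04, 32.4 and 38.7 CPM in WT libraries 1 to 4. The 2 groups covered nearly the same range. The log2 fold change was 0.016 ± 0.124 (SE; adjusted p = 0.926 by edgeR), and its 95% interval ran from 0.835-fold to 1.22-fold. Larger changes than that in either direction lie outside the interval, which is the narrowest of the 9.

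**Figure D2:**
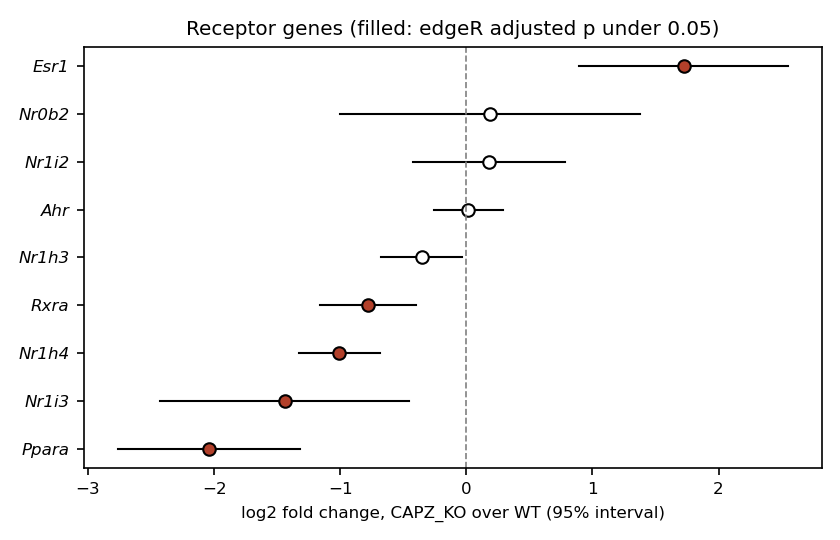
Log2 fold change of each receptor gene, CAPZ_KO over WT, with its 95% interval, with filled points for an edgeR adjusted p under 0.05. Esr1 is the filled point above 0 (1.73) and Ppara the lowest (−2.04), while the intervals of Nr0b2, Nr1i2 and Ahr include 0.

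These values depend on how the libraries are scaled, and Alb alone took 3.49% to 5.09% of all reads in CAPZ_KO libraries and 9.80% to 14.1% in WT libraries. With library sizes alone the log2 fold changes of all tested genes moved by a median of 0.624. The 9 estimates came in the same order as with TMM: Ppara was at −1.44, Nr1i3 at −0.86, Nr1h4 at −0.39, Rxra at −0.16, Nr1h3 at 0.27, Ahr at 0.64, Nr1i2 at 0.78, Nr0b2 at 0.82 and Esr1 at 2.32. In that scaling Nr1i3 and Rxra were not called (edgeR adjusted p = 0.103 and 0.359), and Ahr and Nr1i2 were called higher (edgeR adjusted p = 0.00268 and 0.0276).

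Set per length of exon, the ranking of the receptors changed between the groups. In CAPZ_KO the order by mean CPM per kb was Rxra at 55.2 ± 11.9, Nr1h3 at 48.4 ± 5.41, Nr1i2 at 42.0 ± 12.2, Nr1h4 at 31.1 ± 3.304, Nr0b2 at 22.9 ± 6.32, Ppara at 22.1 ± 8.45, Esr1 at 12.1 ± 2.91, Nr1i3 at 11.3 ± 5.70 and Ahr at 6.08 ± 0.676 (SD, n = 4). In WT it was Rxra at 94.6 ± 7.47, Ppara at 90.9 ± 32.6, Nr1h4 at 62.5 ± 9.99, Nr1h3 at 61.9 ± 9.17, Nr1i2 at 37.0 ± 13.4, Nr1i3 at 30.5 ± 16.0, Nr0b2 at 20.3 ± 13.3, Ahr at 6.02 ± 0.508 and Esr1 at 3.65 ± 2.23 (SD, n = 4). Ppara, beside Rxra at the top in WT, ranked 6 in CAPZ_KO, and Esr1 ranked 7 in CAPZ_KO and 9 in WT. Neighbours in either order had overlapping ranges in 8 of 8 pairs. These ranges ignore that both genes of a pair were measured in the same libraries. In CAPZ_KO the step from Ppara down to Esr1 held in every library, while that from Nr0b2 down to Ppara did not. Steps within libraries were not tested. Lengths are the union of all annotated exons (1132 bases for Nr0b2 to 13661 for Esr1), which lowers the level of a gene whose long exons are little used.

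**Figure D3:**
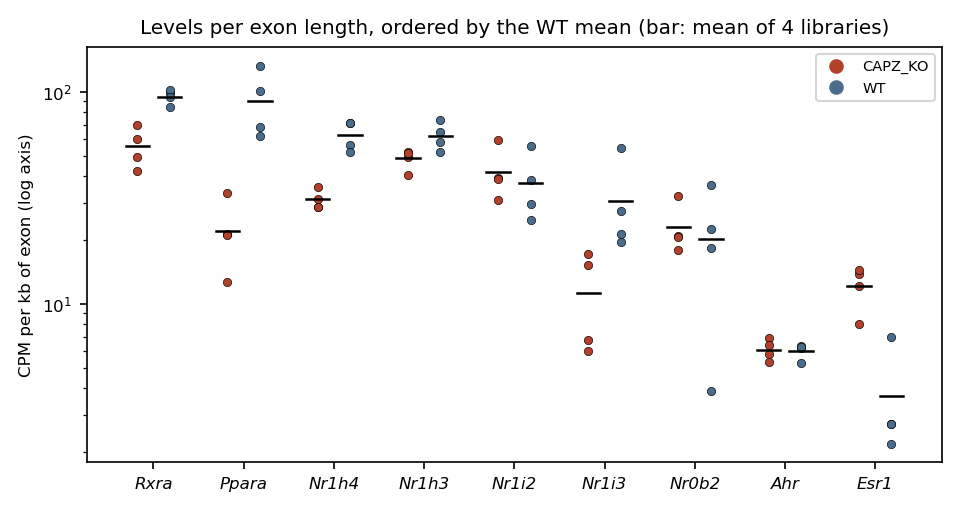
CPM per kb of exon on a log axis for each receptor gene, ordered by the WT mean, with CAPZ_KO left of WT, 1 point a library and a bar for the mean of 4 libraries. Rxra is highest in both groups, Ppara ranks 6 in CAPZ_KO and next to Rxra in WT, and Esr1 is lowest in WT but not in CAPZ_KO.

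Targets of the receptors were read from lists of genes that each is known to induce or repress. The lists were chosen with earlier results of these data known, so a share called above that of all tested genes is no independent evidence. For PPAR alpha, 19 of 26 tested target genes were lower and 1 higher, with a median log2 fold change of −0.92, and 76.9% were called against 41.4% of all tested genes. That count depends on scaling: 12 of the 26 passed with library sizes alone, where all tested genes shifted by a median of 0.624. In that scaling 7665 of all 12985 tested genes were called higher and 700 lower. The 41.4% is therefore no background for counts with library sizes alone, in this list or those below. Acsl1, which activates long-chain fatty acids, was at 169 ± 24.7 CPM in CAPZ_KO and 983 ± 158 CPM in WT (SD, n = 4 each), a log2 fold change of −2.54 ± 0.178 (SE). Fabp1, the liver fatty acid-binding protein, had a log2 fold change of −3.79, and the adjusted p by edgeR of both genes was at most 0.000299. Fgf21, a hormone secreted by the liver, rose by 2.70 on the log2 scale, at 3.43 ± 2.36 CPM in CAPZ_KO and 0.554 ± 0.643 CPM in WT (SD, n = 4 each). Its edgeR adjusted p of 0.0437 became 0.0643 to 0.120 without WT 2, WT 3, CAPZ_KO 1, CAPZ_KO 3 or CAPZ_KO 4, and DESeq2 gave 0.115. Summed hepatocyte markers, mostly Alb, were lower in the same libraries, at 42916 to 63006 CPM in CAPZ_KO and 178500 to 222680 CPM in WT. The part of hepatocyte markers in the falls of Ppara and its targets was not tested. Plin2, Pdk4 and Vnn1, also classic targets and named after their values were seen, had log2 fold changes of 0.24, 0.33 and −0.48 and did not pass (edgeR adjusted p = 0.448, 0.721 and 0.479).

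FXR targets split by direction. Of 9 tested genes that FXR induces, 5 were lower and 4 higher (median −0.82), so that 100% were called against 41.4% of all tested genes. With library sizes alone, where the 41.4% does not apply, 6 of the 9 passed. Slc27a5 and Baat, the enzymes that activate bile acids and join them to taurine or glycine, had log2 fold changes of −2.15 and −0.95, and Abcb11, the bile salt export pump, had −1.34, with Fetub at −1.11 (adjusted p by edgeR up to 0.00375). Slc51b, a subunit of the basolateral bile acid exporter, rose by 3.42 on the log2 scale, at 11.5 ± 3.78 CPM in CAPZ_KO and 1.12 ± 0.879 CPM in WT (SD, n = 4 each), while the other subunit, Slc51a, had almost no reads in either group. Sdc1, a cell surface proteoglycan, rose by 0.77, Pltp, a phospholipid transfer protein, by 1.46 and Abcb4, the phospholipid exporter of bile, by 0.53. The edgeR adjusted p of Abcb4 was 0.0314, and it became 0.0578 to 0.0890 without WT 1, WT 3, CAPZ_KO 1, CAPZ_KO 2 or CAPZ_KO 3. All 3 genes that FXR and SHP repress were lower, where 19% of all tested genes were called lower. Their log2 fold changes were −6.96 for Cyp8b1 (12-alpha-hydroxylase), −3.59 for Slc10a1 (bile acid uptake) and −2.99 for Cyp7a1 (which starts bile acid synthesis from cholesterol). In the same livers Nr1h4 was at 49.7% of its WT level and Nr0b2 did not pass the test. There 9 of 10 hepatocyte markers were lower too, and their part in the changes of both FXR lists was not tested.

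Targets of PXR and CAR went both ways, with 7 of 26 tested genes higher and 9 lower (median −0.35), or 61.5% called against 41.4% of all tested genes, which also went both ways (22.4% higher and 19% lower). Scaled by library sizes alone, where the 41.4% does not apply, 16 of the 26 passed. The genes that rose with the smallest p were glutathione S-transferases: Gsta1 rose by 6.92, Gstm3 by 4.76, Gstm2 by 1.92 and Gstm1 by 1.63 on the log2 scale. Other regulators, NRF2 among them, also induce these genes. The leading falls were in Cyp2c enzymes, with Cyp2c29 at −3.38, Cyp2c54 at −4.48, Cyp2c50 at −2.71 and Cyp2c37 at −4.85 (adjusted p by edgeR up to 0.000277 for all 8). Cyp2c55, also in the list and named after its values were seen, went the other way at 1.66 and did not pass (edgeR adjusted p = 0.0746). It passed in 1 of 8 fits that left out a library. The defining targets of the receptors themselves, named after their values were seen, did not pass. Cyp2b10, the classic CAR target, was at 21.6 ± 18.8 CPM in CAPZ_KO and 27.3 ± 10.97 CPM in WT (SD, n = 4 each, edgeR adjusted p = 0.664). Cyp3a11, the main PXR target, was at 5374 ± 710.2 CPM in CAPZ_KO and 8734 ± 4079 CPM in WT (SD, n = 4 each, edgeR adjusted p = 0.0838), and passed without WT 3 (adjusted p = 0.043), without WT 4 (adjusted p = 0.035) and by DESeq2 (adjusted p = 0.0361). Cyp2c, Cyp3a and Gst genes have near-identical copies, so that reads may be divided among them in unknown ways.

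LXR targets also split, with 5 of 18 higher and 9 lower (median −0.62), or 77.8% called against 41.4% of all tested genes. With library sizes alone, where the 41.4% does not apply, 10 of the 18 passed. The sterol exporters of the canalicular membrane, Abcg8 and Abcg5, fell by 2.04 and 1.25 on the log2 scale, Mlxipl, the glucose-responsive lipogenic factor ChREBP, fell by 2.22 and Apoc1 fell by 1.17. Among the 5 that rose were Scd2, a desaturase, by 2.77, Lpl, lipoprotein lipase, by 2.27, Arl4c, a small GTPase, by 1.65 and Abcg1, a cholesterol exporter of macrophages, by 1.17 (adjusted p by edgeR up to 0.00986 for all 8). Summed markers of monocyte-derived macrophages were higher in the same libraries, at 587 to 854 CPM in CAPZ_KO and 316 to 503 CPM in WT. Most of these sums was Lyz2, which was not called by itself (means of 482 and 305 CPM, edgeR adjusted p = 0.0522). Of Kupffer cell markers, 2 of 6 were called higher. The part of macrophages in these rises was not tested. Srebf1, the lipogenic regulator that LXR alpha induces and a gene named after its values were seen, was at 136 ± 55.8 CPM in CAPZ_KO and 227 ± 122 CPM in WT (SD, n = 4 each, edgeR adjusted p = 0.133), and it passed without CAPZ_KO 3 (adjusted p = 0.0396), while without WT 3 its log2 fold change was −0.30 in place of −0.74.

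AhR targets included 3 of 11 higher and 1 lower (median −0.18), a share called of 36.4%, below the 41.4% of all tested genes. Cyp1a2 fell to 183 ± 53.0 CPM in CAPZ_KO, against 741 ± 170 CPM in WT (SD, n = 4 each), a log2 fold change of −2.02 ± 0.244 (SE; adjusted p = 0.000191 by edgeR). Nqo1, a quinone reductase, rose by 2.22 and Nfe2l2, the gene of NRF2, by 1.54, both of which also belong to the antioxidant response. Cyp1b1, which stellate cells express, rose by 1.75, at 2.14 ± 0.817 CPM in CAPZ_KO and 0.652 ± 0.288 CPM in WT (SD, n = 4 each). Of AhR reporters named after their values were seen, Cyp1a1 and Tiparp did not pass. Ahrr had too few counts to be tested, at means of 0.731 CPM in CAPZ_KO and 0.331 CPM in WT. Cyp1a1 was at 1.34 ± 0.143 CPM in CAPZ_KO and 1.45 ± 0.620 CPM in WT (SD, n = 4 each, edgeR adjusted p = 0.816), and Tiparp was at 10.8 ± 2.54 CPM in CAPZ_KO and 11.3 ± 3.02 CPM in WT (SD, n = 4 each, edgeR adjusted p = 0.823). Of 5 tested genes of the AhR complex (Arnt, Hsp90aa1, Hsp90ab1 and Ptges3 among them), 0 were called by edgeR, DESeq2 or limma-voom and 0 had an unadjusted p under 0.05 by edgeR. Arnt, the DNA-binding partner, was at 43.7 ± 4.16 CPM in CAPZ_KO and 39.3 ± 2.85 CPM in WT (SD, n = 4 each). With library sizes alone 4 of the 5 passed, where all tested genes shifted by a median of 0.624.

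**Figure D4:**
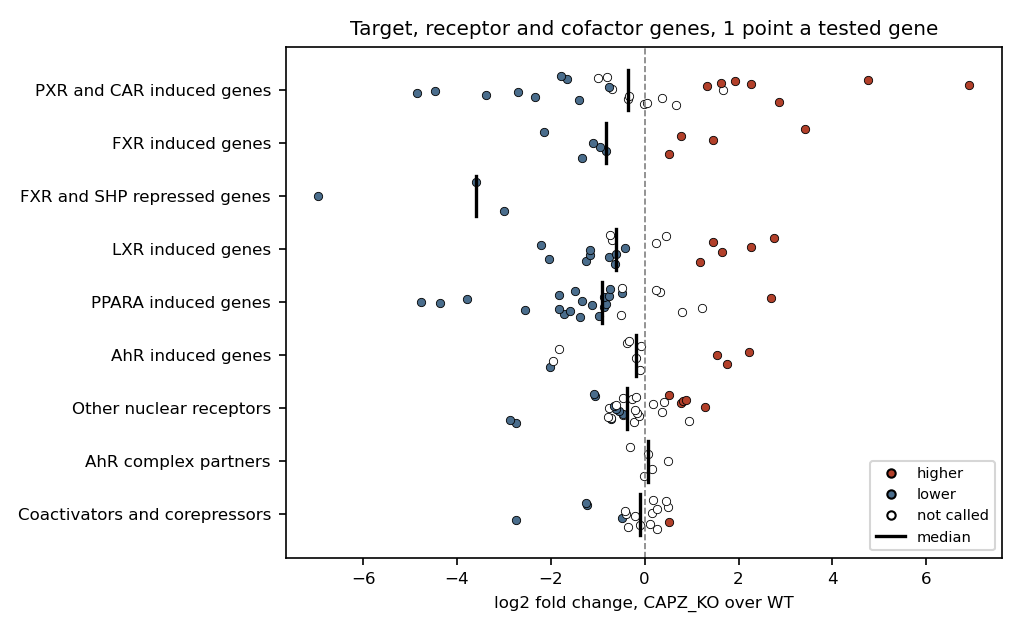
Log2 fold change, CAPZ_KO over WT, of each tested gene in the lists of receptor targets, other receptors and cofactors, with red for higher, blue for lower, white for not called, and a bar for the median of each list. The PPAR alpha list lies mostly below 0, the PXR and CAR list runs from −4.85 to 6.92, and the AhR complex lies near 0.

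Among the 41 other nuclear receptor genes, 30 had enough counts to be tested, of which 5 were higher and 9 lower (median −0.37), a share called of 46.7% against 41.4% of all tested genes. The falls with the smallest p were in Thrb, the main thyroid hormone receptor of liver, at −1.08, Rxrg at −1.06, Nr3c1, the glucocorticoid receptor, at −0.60 (0.021 with library sizes alone), Esrrg at −2.88 and Hnf4a, the central hepatocyte receptor, at −0.71, with adjusted p by edgeR up to 0.0118. Hnf4a was at 427 ± 63.6 CPM in CAPZ_KO and 697 ± 139 CPM in WT (SD, n = 4 each), and with library sizes alone it had −0.09. Esrrg had few reads, at 0.521 ± 0.290 CPM in CAPZ_KO and 3.79 ± 3.88 CPM in WT (SD, n = 4 each). Its WT libraries ran from 1.45 to 9.60 CPM, and without WT 4 its log2 fold change was −1.83. Rarg and Rarb, retinoic acid receptors, rose by 0.88 and 0.82, Nr4a1, an early response receptor, by 1.28, Thra by 0.52 and Pparg, the receptor of fat storage, by 0.78. The call of Rarb (edgeR adjusted p = 0.0206) was lost without WT 3, CAPZ_KO 1 or CAPZ_KO 3 (up to 0.0674). That of Thra (edgeR adjusted p = 0.019) was lost without WT 3, CAPZ_KO 1 or CAPZ_KO 2 (up to 0.0821), and that of Pparg (edgeR adjusted p = 0.0493) without WT 1, WT 3, CAPZ_KO 2, CAPZ_KO 3 or CAPZ_KO 4 (up to 0.125). Exons of Thra overlap those of Nr1d1 on the opposite strand. Nr5a2 (LRH-1), with which SHP interacts and which was named after its values were seen, was at 30.1 ± 2.24 CPM in CAPZ_KO and 47.0 ± 11.01 CPM in WT (SD, n = 4 each, edgeR adjusted p = 0.0122), and had −0.023 with library sizes alone.

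Of 17 coactivators and corepressors, 4 were lower and 1 higher (median −0.092), and the 29.4% called lies below the 41.4% of all tested genes. Lpin1, which also acts as a coactivator of PPAR alpha, fell to 61.6 ± 25.0 CPM in CAPZ_KO, against 413 ± 251 CPM in WT (SD, n = 4 each), a log2 fold change of −2.75 ± 0.482 (SE; adjusted p = 0.00188 by edgeR). Med1, a mediator subunit that binds ligand-bound receptors, had −0.49 (0.14 with library sizes alone), and the PGC-1 coactivators Ppargc1a and Ppargc1b had −1.23 and −1.25. Without WT 3 Ppargc1b was at −0.82, and the edgeR adjusted p of Ppargc1a, 0.0357, became 0.0658 to 0.0861 without WT 2, WT 3, WT 4, CAPZ_KO 1, CAPZ_KO 2 or CAPZ_KO 3. Hdac3, the deacetylase of the corepressor complex, rose by 0.52. The p160 coactivators Ncoa1, Ncoa2 and Ncoa3 and the corepressor Ncor1, named after their values were seen, had log2 fold changes of −0.21, −0.41, 0.17 and −0.41 and did not pass (edgeR adjusted p of 0.0657 or more).

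Genes with the most similar profile were found for each receptor by the root mean square difference of mean-centred log2(CPM + 1) over the 8 libraries, among genes with a mean of at least 5 CPM. Nr1h4 was closest to Eci1 (0.057) and Decr1 (0.084), auxiliary enzymes of fatty acid oxidation. Rxra was closest to Creb3l3 (0.085) and Mocs1 (0.091), Nr1h3 to Adck1 (0.072) and Sys1 (0.074), and Ahr to Sugp1 (0.078) and Acer3 (0.079). Less close were Man1a2 and Gpt2 to Nr1i2 (0.18 and 0.183), Clcn2 and Fgf1 to Ppara (0.202 and 0.224), and Tox and Bnip3 to Nr1i3 (0.247 and 0.271). The most distant nearest genes were those of Esr1, Slc13a3 and Lilr4b (0.29 and 0.328), and of Nr0b2, Atoh8 and Efna1 (0.351 and 0.383). The difference is not scaled to a gene's spread, so it tends to be larger for a receptor whose level varies more between libraries. These values describe 8 libraries that fall into 2 groups.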

How the data were processed

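The authors deposited whole-number read counts, with a row for each gene symbol and a column for each library. The submitters' processing notes name bcl2fastq, STAR 2.5.3a, featureCounts, R 3.3.1, edgeR and the mm10 build without saying what each did. The annotation, the strand setting and the treatment of multi-mapping reads were not given. From these counts, filterByExpr in edgeR 4.0.16 (minimum count 10, total 15, R 4.3.3) kept 12985 of 24421 genes, all 9 receptors among them. TMM factors were 1.18 to 1.33 in CAPZ_KO and 0.774 to 0.847 in WT. Groups were compared with edgeR's robust quasi-likelihood F test over the 8 libraries, without covariates, and p-values were adjusted over all tested genes (Benjamini-Hochberg, threshold 0.05). An SE is the log2 fold change over the square root of F, and 95% intervals use it with the test's degrees of freedom. CPM per kb used GENCODE vM21 exon lengths (GRCm38, equal to mm10). The fitting steps were also run on counts simulated from the fit's own dispersions and scaled library sizes. Those counts held no sex or cell type differences, and the outcome is not reported here.

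The receptors and gene lists were chosen with earlier results of these data known, and the lists were written from textbook knowledge. Named genes were the 9 receptors, Capzb, from each list up to 4 called genes per direction with the smallest p (5 among the other nuclear receptors), and for each receptor the 2 genes with the most similar profile. Others are said to be named after their values were seen, and some genes that the rule names are not reported here. Pltp stands in both the FXR and the LXR list and Ahrr in both AhR lists, and Ces6 was not matched. Exons of Abcb11, Abcg5, Abcg8, Acsl1, Ahr, Mlxipl, Ncoa1, Ncoa3, Ncor1, Nr1i3, Pltp, Rarb, Slc51b, Srebf1, Thra and Tiparp overlap exons on the opposite strand. No 2 libraries of a group agreed within counting noise (chi-square over degrees of freedom 25.2 or more). Alternatives were other scalings and filters, DESeq2 1.42.0, limma-voom (limma 3.58.1), a non-robust dispersion, a threshold of 0.01, a replicate block, sex as a term (read from Xist and Y-linked genes), and leaving out libraries.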

Additional observations from a re-analysis of the deposited data

Results flagged for a closer look

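Esr1 was at 95.4 CPM in WT 4, and its gap to the next WT library was 0.889 of the range of the 4 WT libraries, above Dixon's 95% limit for 4 values. That library is the one of its group with Xist RNA, and the CAPZ_KO library with Xist RNA, at 166 CPM, did not stand apart from the other 3. Ahr was at 32.4 CPM in WT 3, with a gap of 0.835 of a narrow range. Of 18 sets of 4 libraries looked at, chance flags about 1 in 20.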

How the results depend on the processing

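Esr1, Ppara and Nr1h4 kept their direction and their call under every alternative run, and Rxra under all but library sizes alone, where it had −0.16. Leaving out each library in turn gave 1.54 to 2.24 for Esr1, −2.31 to −1.81 for Ppara, −1.09 to −0.95 for Nr1h4, −0.91 to −0.70 for Rxra, −1.74 to −1.02 for Nr1i3, −0.44 to −0.27 for Nr1h3, −0.038 to 0.43 for Nr1i2, −0.17 to 0.61 for Nr0b2 and −0.078 to 0.039 for Ahr. Nr1i3, at −1.44, was not called at a threshold of 0.01, and had −1.43 with no filter on low counts (adjusted p = 0.0532), −0.86 with library sizes alone and −1.19 without both Xist-expressing libraries. Nr1h3 passed by DESeq2 (−0.38), and with library sizes alone it had 0.27, Nr1i2 0.78 and Ahr 0.64. Ahr was also below 0 with DESeq2 size factors (−0.0053) and by DESeq2 (−0.0039). Library sizes alone gave 7665 genes higher and 700 lower, 91.6% of calls higher, against 2913 and 2469 with TMM, and 47 listed genes higher and 29 lower, against 25 and 59. In that scaling 8 called genes turned direction: Lpcat3 (0.19), Apoe (0.016), Hsdl2 (0.14), Nr2c1 (0.15), Nr2f2 (0.089), Nr3c1 (0.021), Med1 (0.14) and Adck1 (0.23); the cause was not tested beyond the shift of all genes by 0.624. A threshold of 0.01 gave 1864 and 1439 genes and 38 listed genes lower. Leaving out 1 library gave 2371 to 2964 genes higher and 2100 to 2658 lower. Tox, one of the genes most like Nr1i3, had −1.12 without WT 4, and Adck1 lost its call without any of 6 libraries.

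The replicate number pairs no samples by the labels. Deviations of same-numbered libraries correlated at 0.244, 0.009, 0.066 and 0.303 across genes, and CAPZ_KO 2 and 3 were most like another number. With the replicate block 2974 genes were higher and 2411 lower, 30 and 66 of the listed genes, and none of the 9 receptors changed its call. Of other genes named, Srebf1 (−0.70, adjusted p = 0.00451), Cd36 (1.61, adjusted p = 0.0162) and Nr1d1 (−0.81, adjusted p = 0.00944) passed by edgeR with the block. Depth limits little here, since the lowest count of a receptor was 67. With 4 libraries a group, Nr0b2 and Nr1i3 are limited by their spread.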

Other observations

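Several receptors, chosen after the values were seen, had higher estimates in the libraries with Xist RNA. With 1 such library a group, sex cannot be told apart from the single sample. In the fit with group and sex, libraries with Xist RNA had log2 differences of 0.82 for Ppara, 0.95 for Nr1i3, 0.81 for Esr1 and 0.78 for Nr1i2 over the others (unadjusted p = 0.00551, 0.0317, 0.0331 and 0.00122), and of 0.088 for Ahr. With 1 such library a group, 4 genes of all tested passed adjustment and none of these receptors did. In 2 of 2 groups the library with Xist RNA was the highest for Nr1i2 and Ppara. For Nr1i3 and Esr1 this held in WT only. In CAPZ_KO 4 they were at 67.1 and 166 CPM, below CAPZ_KO 2 at 75.5 and 188 CPM.

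Cd36, a fatty acid uptake receptor in the PPAR alpha list, was at 249 ± 55.7 CPM in CAPZ_KO and 107 ± 104 CPM in WT (SD, n = 4 each, edgeR adjusted p = 0.111), and passed without WT 4 (adjusted p = 0.000149) and without both Xist-expressing libraries (adjusted p = 0.000241), where it rose by 2.06. It also passed by limma-voom (adjusted p = 0.0419), with sex as a term (adjusted p = 0.0054 by edgeR) and with library sizes alone (adjusted p = 0.0243 by edgeR). Nr1d1, a clock receptor, had −0.71 (edgeR adjusted p = 0.293), and −0.81 with sex as a term (adjusted p = 0.00827 by edgeR) and −0.66 without both Xist-expressing libraries (adjusted p = 0.0369 by edgeR). Both were named after their values were seen.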
